A study of Mus musculus with 2 samples.

Results

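The Mir379 to Mir3072 cluster is a run of microRNA genes on the plus strand of mouse chromosome 12, and it was measured here by microRNA-seq of the hippocampus. Its members were chosen by position. They are the genes that GENCODE M21 annotates as miRNA, with a symbol beginning with Mir, on the plus strand within chr12:109709060-109747960 (mm10). This took in 38 of the 2202 miRNA genes counted, Mir379 being the first and Mir3072 the last. The choice of members used no measured value, though the cluster itself was picked with earlier results of these data known. The cluster is often called miR-379/410, after Mir379 and Mir410, and Mir3072 lies 4082 bp past Mir410.

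The tissue came from males of B6CASTF1/J at 2 months of age, the first-generation hybrid of the C57BL/6J and CAST/EiJ strains, with no treatment named. They formed 1 group of 2 biological replicates, separate biosamples that share a single donor entry. Spread between them may therefore not cover the spread between animals. With a single group, the comparisons are between genes, between stretches of the same domain, and between the 2 libraries. The mice carry different parental alleles, and the counts do not separate them.

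Drosha and Dicer release microRNAs from folded precursors, and these short RNAs pair with messenger RNAs mainly through their seed, bases 2 to 8, to lower the output of those messages. The cluster belongs to the imprinted Dlk1-Dio3 domain, where the noncoding RNAs are made from the maternal chromosome, and its hairpins are thought to be processed from long shared transcripts, among them Mirg. The cluster is found in placental mammals, is transcribed strongly in brain, and can be induced by neuronal activity through Mef2. Several of its products act at synapses.

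Sequences of the products came from the RefSeq table for GRCm38.p6, which held 71 mature sequences for the 38 members. The first set, with the seed in capitals, gives both arms of the 4 most abundant genes. They are shown because these genes carried most of the cluster's reads, and because the counts sum the arms of a hairpin.
miR-382-5p: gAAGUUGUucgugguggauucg
miR-382-3p: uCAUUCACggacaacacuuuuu
miR-411-5p: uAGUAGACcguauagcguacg
miR-411-3p: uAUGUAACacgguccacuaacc
miR-379-5p: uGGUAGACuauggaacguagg
miR-379-3p: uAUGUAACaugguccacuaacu
miR-541-5p: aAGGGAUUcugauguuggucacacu
miR-541-3p: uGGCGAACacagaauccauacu
The 3p arms of Mir379 and Mir411 carry the same seed, while their 5p seeds differ.

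The second set gives products of members studied in neurons, and of the Mir376 and Mir381 relatives, whose seeds differ by little. The seeds are again in capitals. For Mir485 the sequence table held only the 3p arm, so the seed shown may not be that of the product studied in neurons.
miR-134-5p: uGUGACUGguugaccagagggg
miR-485-3p: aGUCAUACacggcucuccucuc
miR-329-3p: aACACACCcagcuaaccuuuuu
miR-376a-3p: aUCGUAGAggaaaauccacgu
miR-376b-3p: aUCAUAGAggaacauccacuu
miR-376b-5p: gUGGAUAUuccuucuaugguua
miR-376c-5p: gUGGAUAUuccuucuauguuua
miR-300-3p: uAUGCAAGggcaagcucucuuc
miR-381-3p: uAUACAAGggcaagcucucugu
The 5p arms of Mir376b and Mir376c share a seed, and the seeds of the 3p arms printed here differ from each other.

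The 71 listed sequences held 65 different seeds, so most products of the cluster would be sorted into different seed families. Only 6 seeds occurred more than once, each in a pair of products. Besides the pairs above, miR-379-5p shared its seed with miR-1193-5p, miR-758-5p with miR-1197-5p, miR-494-5p with miR-410-5p, and miR-453 with miR-496a-5p. The mature sequences were between 19 and 25 nt long. A read covers a whole product, so counts were compared between genes without scaling by gene length, and without correction for how well each sequence is captured.

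The miRNA genes received 2322520 of the 6441333 reads in replicate 1, and 3414105 of the 10003856 reads in replicate 2. Reads that mapped to several places made up 42.6% and 46.0% of the libraries and entered no gene's count. Among marker genes for cell types of the tissue, the neuronal list summed to 34098 and 49116 CPM (counts scaled to 1000000 over the miRNA genes) in replicates 1 and 2, with 13 of 15 genes at 2 CPM or more in both. The sums were 4367 and 2683 CPM for oligodendrocytes, 14889 and 12474 CPM for endothelium, 6456 and 6935 CPM for mural cells, 1260 and 1598 CPM for microglia and leukocytes, 1922 and 1149 CPM for erythrocytes, and 1052 and 994 CPM for choroid plexus. At 2 CPM or more in both libraries were 3 of 3 oligodendrocyte, 1 of 2 endothelial and 2 of 2 mural cell genes. So were 4 of 5 genes for microglia and leukocytes, 3 of 3 for erythrocytes and 4 of 5 for choroid plexus. Genes with several copies, such as Mir124a and Mir9 on the neuronal list, can lose reads as multimapping. The sums therefore do not rank the cell types. In whole tissue, fewer cells of a type and less RNA per cell cannot be told apart.

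The cluster was expressed as a broad set in the hippocampus. Of its 38 genes, 35 were detected, meaning 2 CPM or more in both libraries, beside 18.2% of all 2202 miRNA genes and 33.3% of the 1174 with a Mir symbol. The cluster held 104040 counts in replicate 1, or 4.48% of miRNA-gene counts (Wilson 95% interval 4.45 to 4.51). It held 159792 counts in replicate 2, or 4.68% (4.66 to 4.70). The mean was 4.58% ± 0.142 (SD, n = 2). As a share of all reads of the library, mapped or not, it was 1.61% on average. The median member stood at 252 CPM, and 28 of the 38 genes (73.7%) reached a mean of 100 CPM, as did 16.7% of the genes with a Mir symbol. The median was 166 CPM without the 5 members that share sequence with another gene, and 156 CPM with the unstranded counts, both described below. Beside these 5 of 38 members, a 20 nt run repeated in a second hairpin occurred in 260 of the 1174 genes with a Mir symbol. Among all 2202 miRNA genes it occurred in 1087. Reads lying wholly within such a run could be lost as multimapping. Any effect on the background percentages, or on the total under the cluster's share, was not tested.

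**Figure D1:**
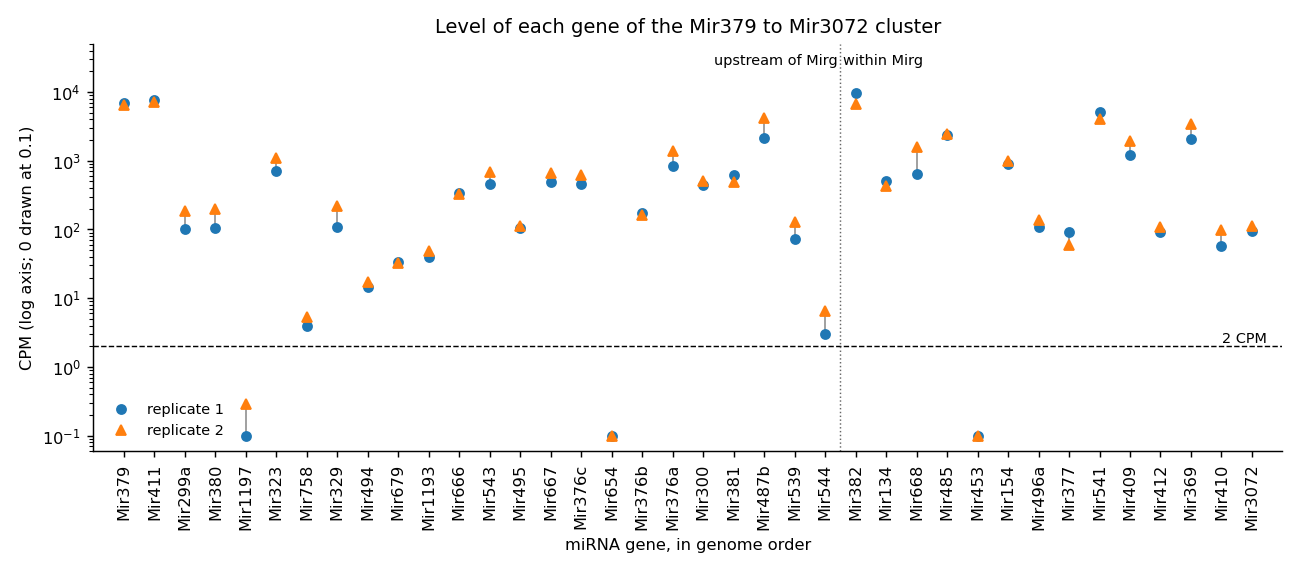
CPM of each of the 38 genes in genome order, on a log axis with 0 drawn at 0.1, in replicate 1 (blue circles) and replicate 2 (orange triangles); the dashed line is the 2 CPM limit and the dotted line the annotated start of Mirg. Levels run from 0 for Mir654 and Mir453 to a mean of 8299 CPM for Mir382, with high and low genes side by side along the whole cluster.

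A handful of genes carried most of the cluster. Mir382, Mir411, Mir379 and Mir541 together held 65.7% of the cluster's counts in replicate 1 and 52.4% in replicate 2. The 10 genes averaging at least 1000 CPM held 86.4% and 84.0%. Detected members spanned an 1815-fold range.

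Mir382 (ENSMUSG00000065428.4), in an exon of Mirg at chr12:109733771-109733846, had 22743 counts (9792 CPM) in replicate 1 and 23236 counts (6806 CPM) in the other library. It led the cluster in replicate 1 and came behind Mir411 in replicate 2, so the order of these leaders did not hold across libraries. Mir411 (ENSMUSG00000065477.3), at chr12:109710175-109710256, had 17586 and 24561 counts, or 7572 and 7194 CPM. Mir379 (ENSMUSG00000065498.4), the first gene of the cluster at chr12:109709060-109709125, had 16064 and 21959 counts, or 6917 and 6432 CPM. Mir411 exceeded Mir379 in both libraries, by 1.09-fold and 1.12-fold. Mir541 (ENSMUSG00000076052.1), whose product has been linked to neurite outgrowth, lies in an intron of Mirg at chr12:109742409-109742498 and had 11922 and 13972 counts, or 5133 and 4092 CPM. It was the fourth gene in replicate 1 and was level with Mir487b in replicate 2.

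Mir487b followed with 4942 counts (2128 CPM) in replicate 1 and 14077 (4123 CPM) in replicate 2. Mir369, whose 3p product is known for acting on AU-rich message elements in quiescent cells, had 4830 counts (2080 CPM) and 11517 (3373 CPM). Mir409 had 2824 counts (1216 CPM) and 6525 (1911 CPM). All 3 were higher in replicate 2, and their order relative to Mir485, the seventh gene by mean, changed between libraries for Mir369 and Mir487b. The remaining genes of the group at 1000 CPM or more were Mir376a and Mir668. Mir668 had 1502 counts (647 CPM) in replicate 1 and 5368 (1572 CPM) in replicate 2. No detected member differed more between the libraries.

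The members best known for work at synapses were spread over the range. Mir485, whose products act on presynaptic proteins such as Sv2a, lies in an exon of Mirg at chr12:109734902-109734974. It had 5500 counts (2368 CPM) in replicate 1 and 8284 (2426 CPM) in replicate 2, a difference within counting error. Mir134, whose product limits the size of dendritic spines through Limk1, lies in an exon of Mirg at chr12:109734139-109734209. It had 1182 counts (509 CPM) and 1443 (423 CPM), and so stood 18th of the 38 genes by mean. Mir329 and Mir381, which with Mir134 take part in activity-dependent dendrite growth, lie upstream of the annotated Mirg gene. Mir329 had 254 counts (109 CPM) and 760 (223 CPM), and Mir381 had 1424 (613 CPM) and 1689 (495 CPM). Mir485 was above each of the other 3 in both libraries. Mir134 was below Mir381 in both, and both were above Mir329 in each library.

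The Mir376 genes are known for A-to-I editing of their precursors, which can change the seed, and edited reads were not analysed here. Mir376a had 1945 counts (837 CPM) in replicate 1 and 4791 (1403 CPM) in replicate 2. Mir376c had 1054 (454 CPM) and 2129 (624 CPM), and Mir376b had 397 (171 CPM) and 554 (162 CPM). The order Mir376a, Mir376c, Mir376b held in both libraries. The hairpin of Mir376b shares a stretch of 20 nt or more with that of Mir376c and with that of Mir487b. Reads lying wholly within such a stretch could have been set aside as multimapping. The listed mature sequences of these genes have no common run of that length. For Mir376c and Mir487b only the 5p arm is listed, so the levels of these 3 genes remain uncertain. Mir300 and Mir381, whose hairpins are 73.8% identical, stood close together: Mir300 had 1016 counts (437 CPM) and 1748 (512 CPM), beside the 613 and 495 CPM of Mir381. Their order changed between the libraries.

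Among the other genes averaging at least 500 CPM, Mir154, after which the family of related hairpins is named, had 2051 counts (883 CPM) in replicate 1 and 3359 (984 CPM) in replicate 2. Mir323 had 1648 counts (710 CPM) and 3799 (1113 CPM). Mir667 had 1155 counts (497 CPM) and 2261 (662 CPM), and Mir543 had 1049 (452 CPM) and 2358 (691 CPM). These 4 were higher in replicate 2, Mir154 by the least. Mir666 had a mean of 338 CPM. A group of 9 genes, Mir376b, Mir329, Mir380, Mir299a, Mir496a, Mir495, Mir3072, Mir539 and Mir412, lay between 101 and 167 CPM and held 2.15% and 2.92% of the cluster's counts.

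At the low end, Mir410, Mir377, Mir1193 and Mir679 had means from 32.7 to 78.2 CPM, and Mir494, Mir544 and Mir758 from 4.57 to 16.0 CPM. Mir410, the gene that gives the cluster the end of its name, had 134 counts (57.7 CPM) and 337 (98.7 CPM). Mir494 had 34 and 59 counts. Just inside the detection limit were Mir544, with 7 and 22 counts, and Mir758, with 9 and 18. The 3 genes not detected were Mir1197, with 0 and 1 counts, and Mir654 and Mir453, with 0 counts in both libraries. With no count seen, the true value may reach 3 counts, or 1.29 CPM in replicate 1 and 0.879 CPM in replicate 2. Such limits, like the intervals, cover counting error only, since amplified reads are not independent molecules.

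Down the order of the 35 detected genes, neighbours often could not be ranked. In 18 of 34 neighbouring pairs the higher gene was the same in both libraries. In 9 of them the mean log2 difference exceeded 2 SD. The same 8 genes led in both libraries, and across the 35 genes the levels in the libraries had a Spearman correlation of 0.978.

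Levels did not rise or fall steadily along the cluster. The members stretch over 38901 bp with a median gap of 590 bp, from 20 bp between Mir679 and Mir1193 to 4368 bp between Mir544 and Mir382. Mirg is annotated over chr12:109729764-109749460, so 24 members lie upstream of its annotated start, 9 overlap its exons and 5 lie in its introns. The upstream genes held 48.5% of the cluster's counts in replicate 1 and 52.8% in replicate 2, with a median of 166 CPM. The 14 genes within Mirg held 51.5% and 47.2%, with a median of 700 CPM. Over the 35 detected genes, the Spearman correlation of level with distance from Mir379 was 0.0588. These genes share their libraries and possibly their transcripts, and the value is a description.

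Genes that sit next to each other could differ widely. Over the 34 steps from a detected gene to the next, the median difference was 5.46-fold, against 6.68-fold over all 595 pairs of detected genes. The difference exceeded 10-fold in 12 of the steps (35.3%), and in 40.7% of all pairs. Mir382 was 17.8-fold above Mir134, which starts 292 bp past its end, by 19.2-fold in replicate 1 and 16.1-fold in replicate 2. Mir412 sits between Mir409 and Mir369, with gaps of 52 and 49 bp. At 93.4 and 109 CPM, it was 15.4-fold below Mir409 and 26.9-fold below Mir369 by mean, and below both in each library. Mir410, 218 bp past Mir369, was 34.9-fold below it. At the other extreme, Mir379 and Mir411, 1049 bp apart, differed by 1.11-fold, and Mir299a and Mir380 by 1.05-fold.

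**Figure D2:**
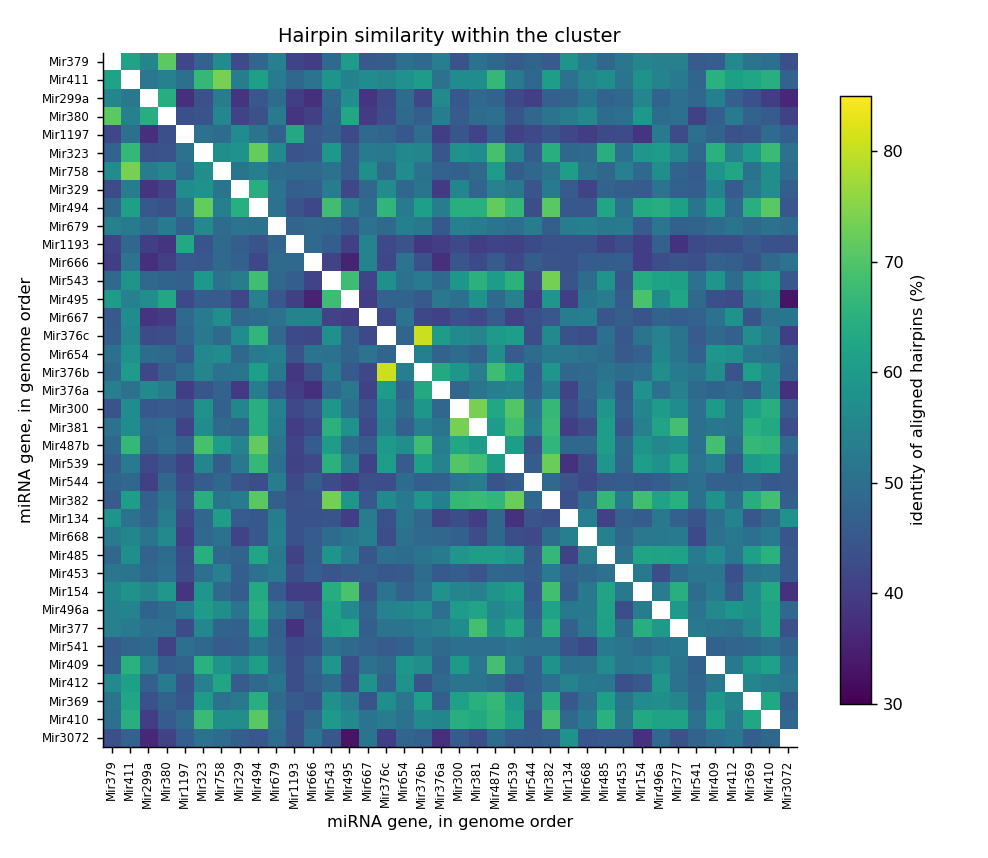
Percent identity of the aligned hairpins of each pair of the 38 genes, in genome order, with the diagonal left white and the colour scale from 30 to 85%. The brightest cell is Mir376b with Mir376c at 80.7%, and similar pairs lie both near the diagonal and far from it.

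Pairs of similar hairpins occurred along the cluster. The median identity over its 703 pairs was 50.0%, and 14.8% of them reached 60% identity. Between the members and the 1135 Mir genes outside the cluster's span, the median over 43130 pairs was 46.5%, and 0.00696% reached 60%. Within the cluster, 29 of the 38 hairpins had a relative in the cluster at 60% or more. For 5 genes the closest relative was the gene next to it. Genes with similar hairpins could still differ widely in level. Of 11 pairs of detected genes at 70% or more, 7 differed over 10-fold in mean CPM, and the median difference was 44.3-fold. These pairs reuse genes: Mir494, one of the lowest, is in 4 of them and Mir382, the highest, in 3. The 5 pairs with neither had a median difference of 4.68-fold, beside 6.68-fold over all pairs of detected genes. Mir411 exceeded its closest relative Mir758 by 1614-fold, at 73.8% identity. Mir379 exceeded Mir380 by 44.3-fold, at 71.2%, and Mir382 exceeded Mir543 by 14.5-fold and Mir539 by 81.8-fold, at 73.4% and 72.7%. Mir300 and Mir381, at 1.17-fold, were the only pair of the 11 under 2-fold.

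A shared stretch of 20 nt or more with another annotated hairpin was found for 5 members, Mir411, Mir758, Mir376b, Mir376c and Mir487b, and in each case the partner was another member. For Mir411 and Mir758, reads lying wholly within the shared stretch would have been in neither count. Their listed mature sequences have no common run of 20 nt, so any effect on the fold above is not known. Elsewhere in the genome no search was made. Hairpin length ran from 61 to 121 nt and GC content from 29.1% for Mir376c to 72.3% for Mir3072, with medians of 79 nt and 43.5%. Predicted folding energies ran from -46.9 to -16.6 kcal/mol. Over the detected genes, level had Spearman correlations of -0.0140 with GC content, -0.0612 with length and 0.0314 with folding energy per nt.

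All reads of the cluster came from the plus strand. Counts on the opposite strand of the 38 members were 0 in both libraries. Another miRNA gene is annotated opposite Mir299a, Mir380, Mir376a, Mir539 and Mir409, and these minus-strand genes had 0 counts in their own sense. In the count that ignores strand these 5 members fell to 0, which removed 5415 and 13063 counts, while the other 33 members kept the same counts.

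**Figure D3:**
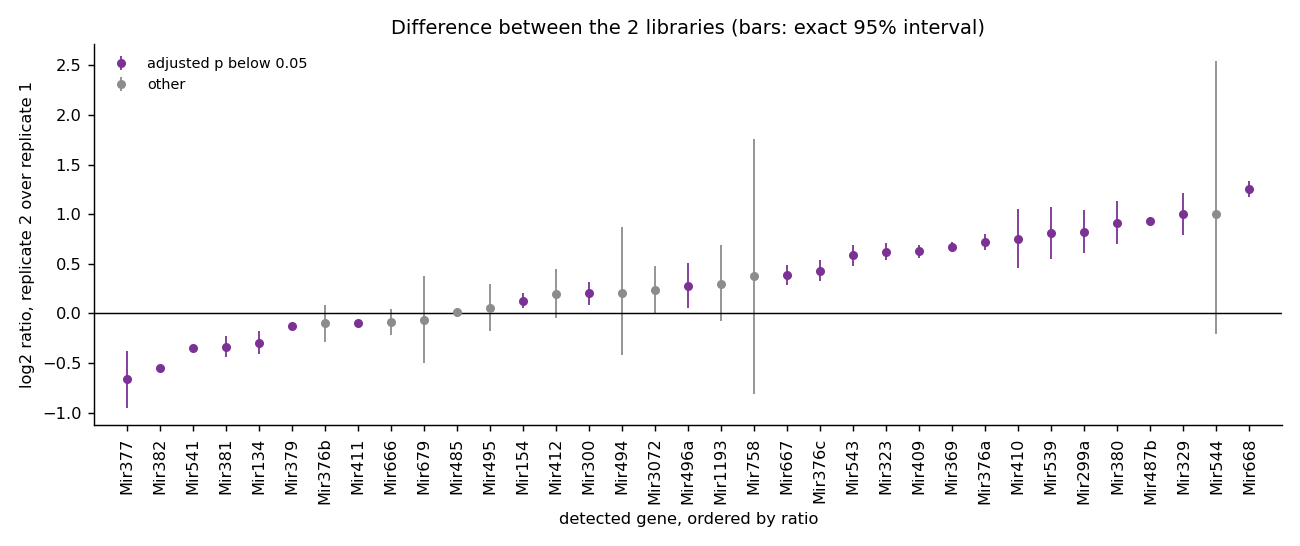
Log2 ratio of replicate 2 over replicate 1 for each of the 35 detected genes, ordered by ratio, with exact 95% intervals as bars and purple for an adjusted p below 0.05. The ratios run from -0.66 for Mir377 to 1.26 for Mir668, and 17 of the 24 purple points lie above 0.

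The libraries differed in the cluster's makeup more than in its share, whose intervals of 4.45 to 4.51% and 4.66 to 4.70% do not overlap. These intervals cover counting error within each library only, not spread between replicates. By exact binomial tests, with p-values adjusted by Benjamini-Hochberg over all 401 detected genes, 24 of the 35 detected members differed between the libraries, where 50.9% of all detected genes did. Of these 24, 17 were higher in replicate 2 (28.2% of all detected genes) and 7 were lower (22.7%). At 1.5-fold or more in either direction the count was 13, beside 18.7% of all detected genes. Of these 13, 12 were higher in replicate 2, as were 49 of the 75 such genes among all 401 detected. The median log2 ratio was 0.28 over the members and 0.03 over all detected genes. The test compares the reads of 2 libraries, not conditions, and deep counts let small differences pass.

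Mir668 was 2.39-fold higher in replicate 2 (log2 interval 1.17 to 1.34, adjusted exact binomial p = 4.47e-224). Mir329 was 2.00-fold higher (0.79 to 1.21) and Mir487b 1.90-fold (0.88 to 0.98). Mir544, at 2.01-fold, did not pass with 7 and 22 counts (adjusted exact binomial p = 0.160). The genes that passed as lower in replicate 2 included the 4 most abundant: Mir382 was 1.46-fold lower, Mir541 1.28-fold, Mir379 1.09-fold and Mir411 1.07-fold. The others were Mir377 at 1.58-fold, Mir381 at 1.26-fold and Mir134 at 1.23-fold. For Mir485 the ratio was 1.01, with a log2 interval of -0.04 to 0.06.

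All 5 members with a gene annotated opposite them were among the 17 of 35 detected members called higher in replicate 2. Over all detected genes 28.2% were, and the overlap was seen only after the values were known. The folds of these 5 members were 1.77 for Mir299a, 1.88 for Mir380, 1.65 for Mir376a, 1.75 for Mir539 and 1.54 for Mir409. The neuronal marker sum was also higher in replicate 2 and the oligodendrocyte sum lower, as given above. The genes of a list did not move alike. Among neuronal markers, Mir128-1 went from 4518 CPM in replicate 1 to 16906 CPM in replicate 2, and Mir132 from 11112 to 10719 CPM. Among oligodendrocyte markers, Mir219a-2 went from 2447 to 865 CPM and Mir338 from 1911 to 1811 CPM. The part of cell types in the differences between the libraries was not tested. Over the 35 members, the library ratio had a Spearman correlation of 0.0542 with GC content and of -0.150 with level.

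**Figure D4:**
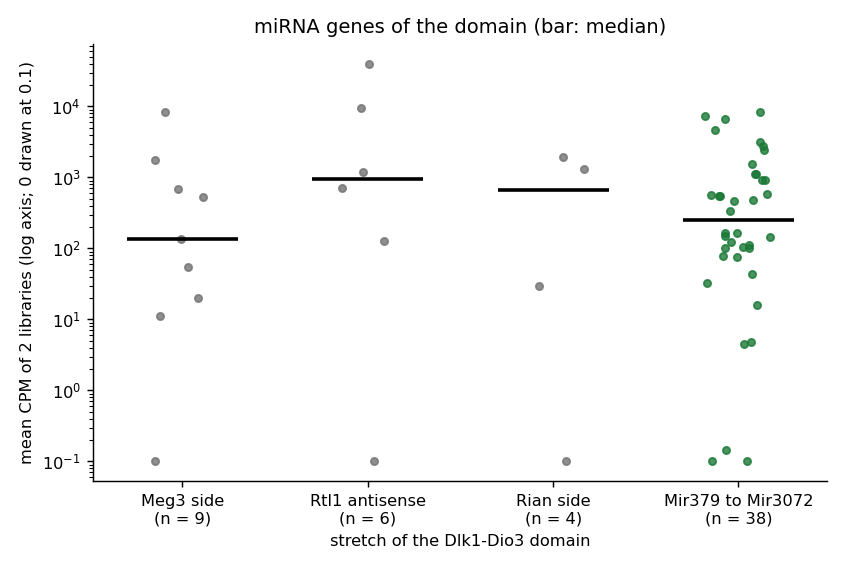
Mean CPM of the 2 libraries, on a log axis with 0 drawn at 0.1, for each miRNA gene in 4 stretches of the domain, with the median of each stretch as a bar. The Mir379 to Mir3072 genes (green) reach 8299 CPM and have a median of 252 CPM, and the highest point of all is the Rtl1-antisense gene Mir127.

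Within the Dlk1-Dio3 domain the cluster had 38 of the 57 plus-strand Mir genes, and 39.4% of their counts in replicate 1 and 42.7% in replicate 2. The other 19 genes lie between the start of Meg3 and Mir379. The 6 genes opposite Rtl1, led by Mir127, summed to 52839 and 49535 CPM, above the cluster's 44796 and 46803 CPM. The ratio of the cluster to them was 0.848 and 0.945. The 9 genes on the Meg3 side summed to 13856 and 8985 CPM, and the 4 on the Rian side to 2189 and 4380 CPM. The cluster exceeded these by 3.23-fold and 5.21-fold, and by 20.5-fold and 10.7-fold. Against all 19 neighbours the ratio was 0.697 ± 0.0663 (SD, n = 2), and without Mir127 it was 1.76. Each ratio kept its side of 1 from library to library, but with 2 libraries the smallest p of an exact two-sided sign-flip test is 0.5, so that test could not pass a threshold of 0.05.

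By gene, the stretches overlapped. The median was 134 CPM on the Meg3 side, 943 CPM opposite Rtl1, 664 CPM on the Rian side and 252 CPM in the cluster. Detected shares were 8 of 9, 5 of 6, 3 of 4 and 35 of 38. Between the libraries, 12 of the 16 detected neighbours differed, where 50.9% of all detected genes did. Of these 12, 5 were higher in replicate 2 (28.2% of all detected genes) and 7 were lower (22.7%). The median log2 ratio of the 16 neighbours was -0.08, beside 0.03 over all detected genes.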

How the data were processed

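Small-RNA libraries under 30 nt were sequenced per the labels, with 2 replicates in 1 group. The deposited values are raw read counts per miRNA gene in 3 columns (both strands, same strand, opposite strand) on mm10 with annotation M21, per the labels and deposited descriptions. The aligner and counter are not given in the sources used here. Multimapping reads were in no gene's count.

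Same-strand counts were scaled to CPM over all miRNA genes, leaving out 4 summary rows. These were multimapping (42.6% and 46.0% of reads), unmapped (16.2% and 15.1%), outside genes (5.16% and 4.70%) and ambiguous (0). Libraries were compared per gene over all 401 detected genes with exact binomial tests, two-sided, under TMM factors of 0.991 and 1.01 (edgeR 4.0.16, SciPy 1.17.1) and Benjamini-Hochberg adjustment at 0.05. A pseudocount of 0.5 per library entered the log2 ratios. The method was tested on simulated data with planted differences and counting error only. That simulation does not cover extra spread between libraries. Neither edgeR's nor DESeq2's own test can be fitted with 1 group. Hairpins (GENCODE M21 transcripts) were aligned globally with Biopython 1.88 and folded with ViennaRNA 2.7.2. Mature sequences came from RefSeq.

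The rule for members uses position alone, but the cluster, the lists and the tests were chosen with earlier results of these data known. Members at a mean of 500 CPM or more, those with known synaptic or editing roles, those not detected, and the 3 widest library differences in each direction were named. The planned design ended at Mir410, whereas the rule for members takes in Mir3072.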

Additional observations from a re-analysis of the deposited data

How the results depend on the processing

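The number of detected members was 30 to 35 under all alternatives tried (unstranded counts, each library alone, no members with shared sequence, 10 CPM or 1 count as the limit, no Mir3072). It was 30 with unstranded counts, where 5 members have no reads. It was also 30 without the 5 members sharing 20 nt, all 5 of them detected, and 34 without Mir3072, itself detected. At 10 CPM it was 33. The share of 4.58% became 3.46% without members that share 20 nt, 1.61% over all reads and 8.06% with the 5 most abundant miRNA genes left out of the total. The median of 252 CPM became 156 CPM with unstranded counts, 166 CPM without members sharing 20 nt, 444 CPM without the 5 most abundant genes in the total and 338 CPM without Mir3072, and was 258 to 277 CPM with each library alone. The ratio to the domain neighbours was 0.526 without members sharing 20 nt and 1.76 without Mir127, the latter and the removal of Mir3072 being chosen after seeing the data. Of the 24 members differing between libraries, 13 did so at 1.5-fold or more, beside 18.7% of all detected genes. With median-of-ratios size factors 23 of 35 members differed, beside 49.4% of all genes tested. With total counts it was 24 of 35, beside 51.1%. With no filter it was 24 of 36, beside 29.4% of 715 genes. With unstranded counts, where 5 members have no reads, it was 19 of 30, beside 48.9%. No ratio that passed the test changed sign, and Mir496a alone lost its call, with median-of-ratios size factors (adjusted exact binomial p = 0.0544). Under the same factors the log2 ratio of Mir485, which passed under neither, went from 0.01 to -0.02. The library comparison has no value with either replicate left out. No paired analysis was possible because there is 1 group.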

Other observations

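Outside the cluster, 11 of the 71 listed mature sequences had a seed that another listed mouse miRNA also carries. The pairs included miR-329-3p with miR-362-3p, miR-410-3p with miR-344d-3p and miR-344e-3p, miR-495-3p with miR-1192, and miR-1193-3p with miR-370-5p of the same imprinted domain. The table of sequences is not complete, so these are counts over the entries it lists.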
